A study of Homo sapiens with 12 samples.

Results

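The genes described here encode 10 sulfotransferases of heparan sulfate and chondroitin sulfate: HS6ST2, HS6ST1, HS2ST1, NDST1 and NDST2 for heparan sulfate, and CHST15, CHST11, CHST12, CHST14 and CHST3 for chondroitin and dermatan sulfate. CHST15 and HS6ST2 were chosen because their levels differed between the siRNA groups of these same arrays, and the other 8 because they encode enzymes of the same kind. Of the 10 genes, 9 had a named probe, with 11 probes among the 47321 on the array; NDST2 was not analysed here. For 8 genes, represented by 9 probes, the signal passed the filter on dim probes, and CHST11 did not. The values of CHST15 and HS6ST2 that led to their choice are given as a description, without a test, and the other 6 filtered genes were tested.

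Total RNA came from SH-SY5Y, a line grown from a human neuroblastoma, a tumour of the sympathetic lineage, 96 h after transfection with Lipofectamine RNAi Max. The 4 control arrays hold RNA of cells given a control siRNA. Each of 2 further groups of 4 arrays holds RNA of cells given 1 siRNA against SETD1A, s18789 or s18790. SETD1A encodes a methyltransferase of histone H3 that acts at gene promoters, and the study asked which transcripts change when it is lowered. All groups share the line, the serum-containing medium and the transfection; they model short-term knockdown in a single tumour line, each siRNA has its own sequence, and no source used here states that replicates came from separate cultures. The p-values therefore cover only the spread among these arrays, which may be technical. In such bulk samples, less RNA per cell and fewer cells that express a gene cannot be told apart.

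Heparan sulfate and chondroitin sulfate are long sugar chains carried by proteoglycans of the cell surface and matrix. They are built in the Golgi apparatus on a common linker attached to a core protein, and are then decorated with sulfate groups taken from the donor PAPS. Each sulfotransferase adds sulfate at a particular position, and the resulting pattern decides which growth factors, guidance cues and receptors the chain can bind. In the nervous system, sulfated chondroitin chains are known for their effects on neurite growth and heparan sulfate for its role in fibroblast growth factor signalling and axon guidance.

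The SETD1A protein complex contains a subunit that recognises unmethylated CG dinucleotides, so the CG content of the windows before the annotated gene starts is shown for the pair of genes with the large differences and for CHST12, the one member called among those tested. The sequences are the 250 bases before the RefSeq gene start in GRCh38.p14, on the strand of the gene, with every CG in capitals. The windows lie upstream of the annotated start, at chr10:124093599-124093848 (minus strand) for CHST15, chrX:132961371-132961620 (minus strand) for HS6ST2 and chr7:2403361-2403610 (plus strand) for CHST12. Which start these cells use was not measured on the arrays.
CHST15: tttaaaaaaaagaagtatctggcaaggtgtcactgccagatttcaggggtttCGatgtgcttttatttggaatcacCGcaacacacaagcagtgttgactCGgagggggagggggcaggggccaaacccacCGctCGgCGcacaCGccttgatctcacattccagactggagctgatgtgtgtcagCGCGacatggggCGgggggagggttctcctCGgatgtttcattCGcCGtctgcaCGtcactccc
HS6ST2: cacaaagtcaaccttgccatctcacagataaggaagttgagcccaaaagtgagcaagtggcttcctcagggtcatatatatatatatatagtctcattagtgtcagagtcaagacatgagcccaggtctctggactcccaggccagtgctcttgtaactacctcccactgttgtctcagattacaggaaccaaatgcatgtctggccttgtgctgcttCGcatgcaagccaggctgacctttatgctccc
CHST12: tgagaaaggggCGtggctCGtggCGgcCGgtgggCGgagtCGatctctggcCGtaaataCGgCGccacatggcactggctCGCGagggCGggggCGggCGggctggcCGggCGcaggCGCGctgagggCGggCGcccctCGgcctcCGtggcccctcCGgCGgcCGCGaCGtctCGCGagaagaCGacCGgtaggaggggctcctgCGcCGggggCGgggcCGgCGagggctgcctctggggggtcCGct

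The CHST15 window held 14 CG dinucleotides at a G and C content of 55.6%, and 55.2% of the 35114 RefSeq windows of this length held fewer. The HS6ST2 window held 1 CG, a count exceeded or equalled by 93.9% of windows, with 48% G and C; only 6.06% of windows held fewer. The CHST12 window held 37, with 78% G and C, and 96.0% of windows held fewer. Since a CG reads the same on both strands, 1 count covers both. Over all windows the median was 11 and the quartiles were 3 and 23. The other genes ranged from 4 in NDST1 to 40 in HS6ST1, and HS2ST1 held 24, CHST11 31 and CHST14 21. Several starts are annotated for NDST2 (39 and 26) and CHST3 (21, 39 and 13). The CG count is a property of these letters and says nothing of what binds there.

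**Figure D1:**
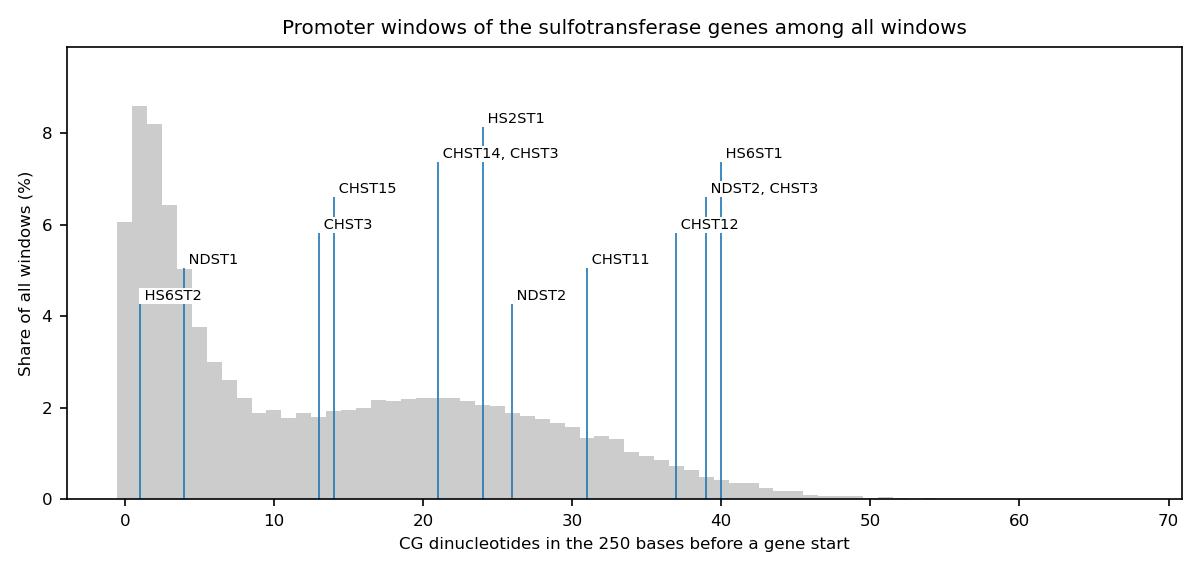
Number of CG dinucleotides in the 250 bases before a gene start (horizontal axis) against the share of all 35114 RefSeq windows in percent (grey bars), with a vertical line at the count of each sulfotransferase window; the height of a line has no meaning. HS6ST2 stands near the lower end with 1 and CHST12 and HS6ST1 near the upper end with 37 and 40, while CHST15 with 14 lies near the median of 11.

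The median intensity of an array was between 63.1 and 70.2, and between 29.1% and 33.6% of all probes on an array were detected (detection p under 0.01). No 2 arrays held identical values. SETD1A itself had log2 intensities of 7.52, 7.65, 7.51 and 8.04 on the control arrays, 7.34, 7.23, 7.10 and 7.31 with s18789, and 6.99, 7.46, 6.91 and 6.84 with s18790. Both siRNA groups lay wholly below the controls. The log2 difference from control was -0.43 ± 0.15 (SE, 4 arrays per group) for s18789, with an adjusted p of 0.619 in limma, and -0.63 ± 0.15 for s18790, with an adjusted p of 0.0276; without control replicate 2, s18790 replicate 1 or s18790 replicate 4 the latter p was 0.0682, 0.0734 and 0.0664. It was 0.10 with only the compared groups in the fit and 0.0502 without the detection filter. Of 24 alternatives 18 kept the call. SETD1A on control replicate 4 and s18790 replicate 2 was above the mean of the other arrays of the group, by 0.48 and 0.54. Without both arrays the adjusted limma p for s18790 was 0.00139. Between the siRNAs SETD1A differed by -0.20 ± 0.15 (limma, adjusted p 0.468, and 0.0400 without both arrays). Of the adrenergic neuroblastoma markers, 8 of the 9 with a probe were detected on all 12 arrays, among them PHOX2A, HAND2 and DBH, and TH was detected on none.

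A pair of arrays stood apart from the rest. On the first principal component, which held 60.6% of the variance, s18790 replicate 2 had a score of 83.9 and control replicate 4 one of 26.8, while the other arrays ranged from -23.8 to 12.8. On both arrays the probes of HS6ST2 and HS2ST1 were lower than the mean of the other 3 arrays of the group, and those of CHST15, NDST1, CHST12, CHST14 and CHST3 were higher. For NDST1 the deviations were 0.88 on control replicate 4 and 0.81 on s18790 replicate 2, and for HS2ST1 they were -0.56 and -1.08. CHST15 deviated by 0.34 and 0.11.

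**Figure D2:**
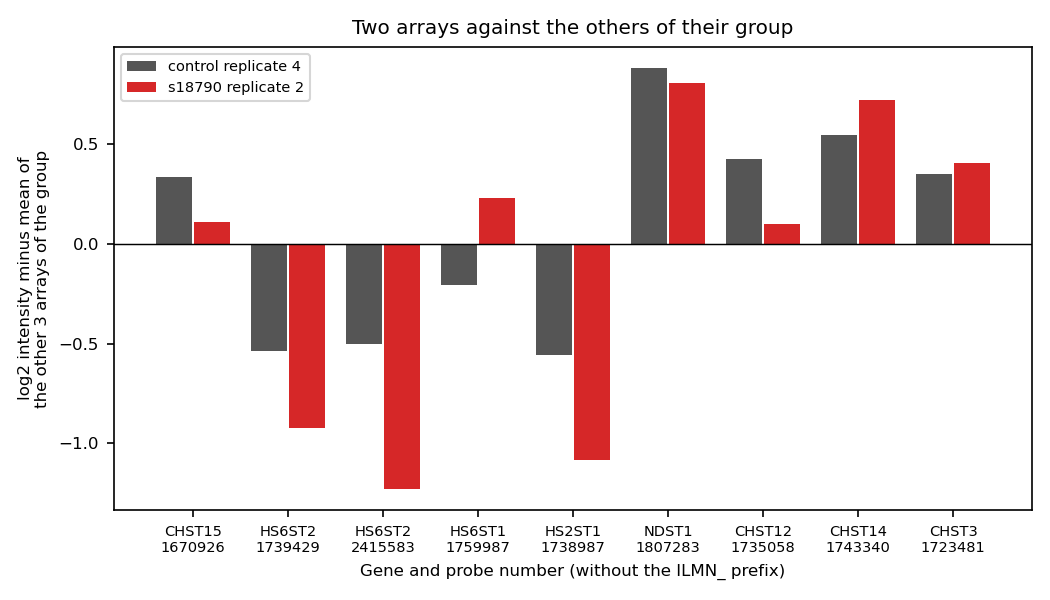
Deviation of control replicate 4 and s18790 replicate 2 from the mean of the other 3 arrays of their group, in log2 units, for each filtered sulfotransferase probe. HS6ST2 and HS2ST1 were low on both arrays, NDST1 and CHST14 were high on both, and CHST15, CHST12, CHST3 and HS6ST1 lay closer to their groups.

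Over all probes, 15922 passed the filter (detection p under 0.01 on at least 4 of the 12 arrays), and a probe is termed called where its limma p, adjusted over all of them by the Benjamini-Hochberg method, was under 0.05. With s18789 against control, 15 probes or 0.0942% were called. With s18790 against control 1323 probes or 8.31% were called, 4.03% of all probes being called higher, and between the siRNAs 667 probes or 4.19% were called. The groups did not overlap for 7.72%, 15.3% and 16.2% of the 9833 measured genes in these comparisons. Both siRNAs were compared with the same control arrays.

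CHST15 was lower with s18789 and higher with s18790. The enzyme adds a second sulfate to galactosamine residues of chondroitin that already carry one, and so makes the highly sulfated form known as chondroitin sulfate E. On the log2 scale its probe read 7.54, 7.34, 7.39 and 7.76 on the control arrays. With s18789 it read 6.30, 6.19, 6.24 and 6.15, and with s18790 it read 8.81, 8.81, 8.41 and 8.89. The 3 groups were fully separate, with s18789 at the bottom, control in the middle and s18790 at the top. Taking the groups 2 at a time, 7.72%, 15.3% and 16.2% of all genes had no overlap in the 3 comparisons. The share of genes with all 3 groups separate was not counted. CHST15 was chosen for its differences, so nothing is read from its separation.

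In the deposited intensities, before background correction, the same probe ranged from 194.9 to 263.7 on the control arrays, from 117.3 to 122.7 with s18789 and from 369.9 to 487 with s18790. It was detected on all 12 arrays. The group means were 7.51 ± 0.19, 6.22 ± 0.06 and 8.73 ± 0.21 (log2 intensity, SD, n = 4). The level with s18789 was thus 0.409 times that of the control (log2 difference -1.29 ± 0.13, SE). With s18790 it was 2.33 times the control level (log2 difference 1.22 ± 0.13).

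Between the siRNAs the CHST15 level differed 5.70-fold, with a log2 difference of 2.51 ± 0.13 for s18790 minus s18789. By size it was the largest difference of all 9833 genes between s18789 and control and also between the siRNAs, and the 36th between s18790 and control. This rank describes the choice of the gene and supports nothing. Without the pair of arrays that stood apart the differences were -1.20 for s18789 and 1.26 for s18790 against control. Without background correction the difference between the siRNAs was 1.87 on the log2 scale, and in the authors' deposited log2 values it was 1.86.

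HS6ST2 was near the control level with s18789 and low with s18790. It encodes one of the enzymes that place sulfate on the 6-O position of glucosamine in heparan sulfate, a modification used by fibroblast growth factors and their receptors. Its brighter probe, ILMN_1739429, read 8.44, 8.49, 8.26 and 7.86 on the control arrays. It read 8.14, 8.10, 8.22 and 8.42 with s18789 and 7.04, 6.06, 7.21 and 6.71 with s18790. All 4 s18790 arrays lay below all 8 others, and the s18789 and control arrays overlapped.

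A second probe of HS6ST2, ILMN_2415583, assigned to another transcript record, was also lowest with s18790. It read 7.61, 7.65, 7.80 and 7.19 on the control arrays, 7.36, 7.64, 7.65 and 7.84 with s18789, and 6.88, 5.40, 6.62 and 6.40 with s18790. Again the s18790 arrays lay below every other array, and the lowest, replicate 2, was not detected (detection p 0.0338). That array is one of the pair that stood apart, and it was the lowest s18790 array for both probes. Another probe, assigned to the same record as the second, was not well above background on any array, with a detection p between 0.447 and 0.875.

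The HS6ST2 means of the brighter probe were 8.26 ± 0.29 in control, 8.22 ± 0.14 with s18789 and 6.75 ± 0.51 with s18790 (log2 intensity, SD, n = 4). For s18790 the level was 0.351 times that of the control (log2 difference -1.51 ± 0.22, SE), and the second probe gave 0.425 times (-1.24 ± 0.26). Relative to s18789 the brighter probe was at 0.361 times and the second at 0.408 times. The difference between s18789 and control was -0.041 ± 0.22 for the brighter probe and 0.059 ± 0.26 for the second. HS6ST2 was chosen for the difference with s18790, which ranked 6th of 9833 genes by size, and no test is given. Without the pair of arrays that stood apart the difference of s18790 from control was -1.40 for the brighter probe and -1.05 for the second. In the authors' deposited log2 values the second probe differed by -0.81 between s18790 and control.

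**Figure D3:**
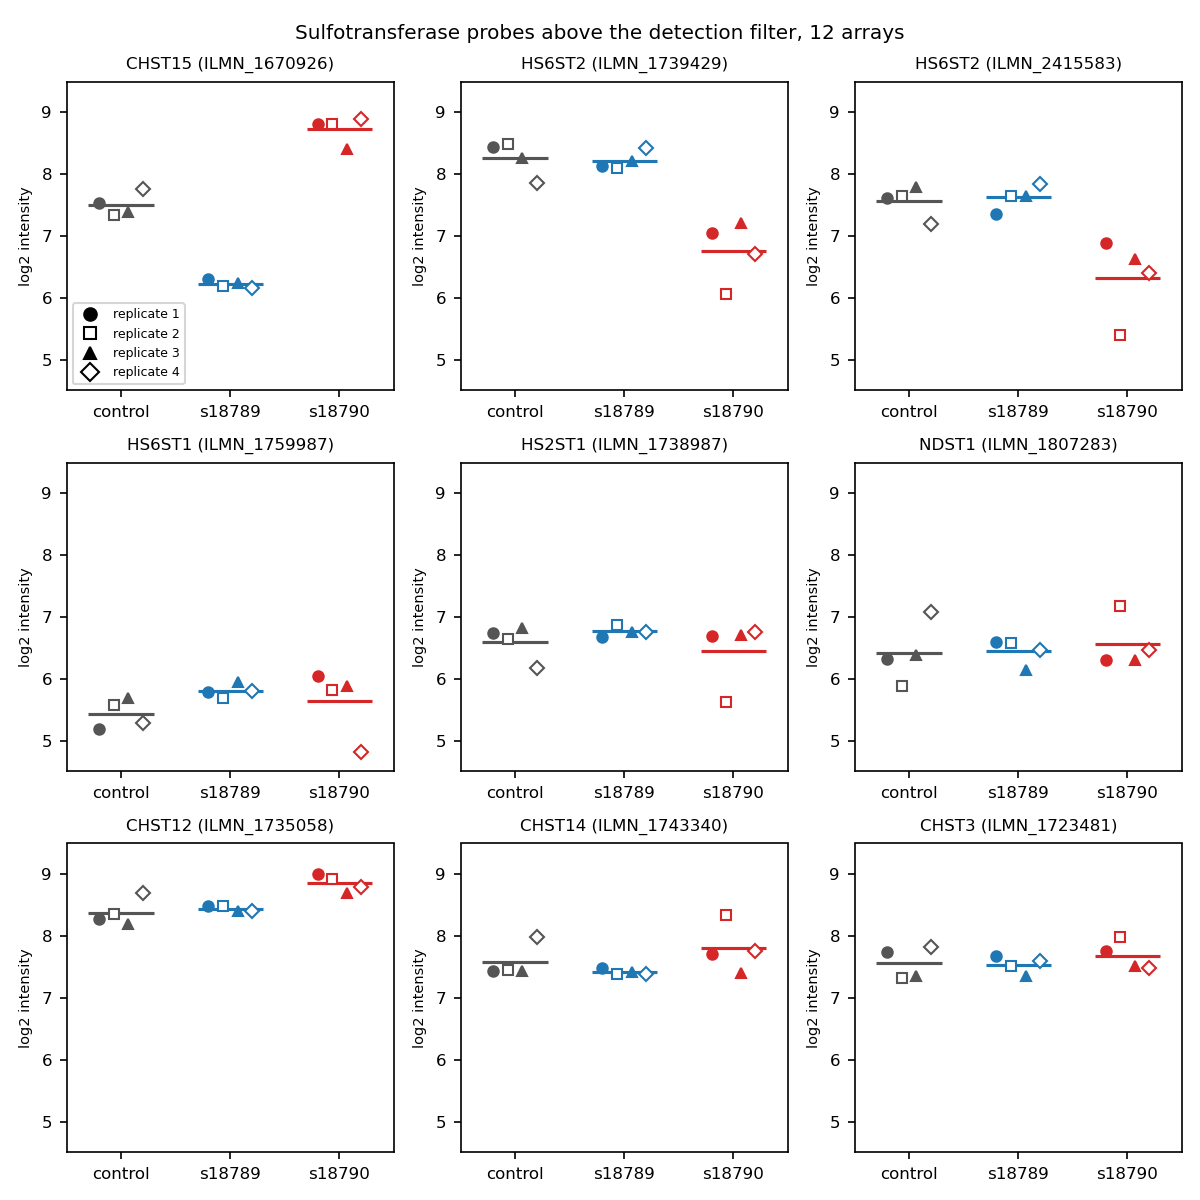
Log2 intensity of the sulfotransferase probes on each of the 12 arrays, by siRNA group, with a line at the group mean, a symbol for each replicate number and the probe identifier after the gene name. CHST15 forms 3 separate groups (means 7.51, 6.22 and 8.73), both detected HS6ST2 probes are low on the 4 s18790 arrays, and the groups of the other genes lie close together.

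Of the 6 sulfotransferases that were tested, CHST12 alone was called, and only for s18790 against control. In the comparison of s18789 with control 0 of 6 were called, also at an unadjusted p under 0.05, beside 0.0942% of all probes. For s18790 against control it was 1 of 6, beside 8.31%, and between the siRNAs 0 of 6, beside 4.19%, with 1 at an unadjusted p under 0.05. Of the 15922 filtered probes, 960, 3971 and 3442 had an unadjusted limma p under 0.05 in the 3 comparisons. The median log2 difference of the 6 genes was 0.047, 0.17 and 0.13 in these comparisons, and that of all genes 0.011, 0.018 and 0.021. The median size of the difference, regardless of sign, was 0.11, 0.18 and 0.24, close to the 0.105, 0.225 and 0.218 of all genes. HS6ST1, among the 6, passed the filter only through its s18789 arrays, the group with its highest mean. The counts and medians that include it are therefore a description.

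CHST12 rose with s18790. It encodes one of the enzymes that sulfate the 4-O position of galactosamine in chondroitin. Its log2 intensities were 8.27, 8.36, 8.19 and 8.70 on the control arrays, 8.49, 8.49, 8.40 and 8.40 with s18789, and 9.01, 8.93, 8.70 and 8.79 with s18790. The s18790 arrays lay above those of both other groups, but control replicate 4, one of the pair that stood apart, nearly touched the lowest of them, both at 8.70. In the deposited intensities, before normalization, the groups overlapped. There s18790 replicate 4 read 354.9, beside 345.2 to 473.6 in control and 401.4 to 423.8 with s18789. On the normalized scale the CHST12 level with s18790 was 1.39 times that of the control. The log2 difference was 0.48 ± 0.12 (SE, 4 arrays per group, limma, adjusted p 0.0313).

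The CHST12 call rested on several arrays. The adjusted p was 0.10, 0.0855 and 0.102 without control replicate 1, 2 or 3, and 0.0911 without s18790 replicate 1. Without the pair of arrays that stood apart it was 0.00385 (log2 difference 0.55). With median scaling it was 0.186 and with only the compared groups in the fit 0.117; over all 23 alternatives it ranged from 0.00254 to 0.186, and the log2 difference stayed above 0. Against s18789 the difference was 0.41 ± 0.12 with an adjusted p of 0.0744, which became 0.0389 without control replicate 4. For s18789 against control it was 0.066 ± 0.12.

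CHST11, CHST14 and CHST3 complete the chondroitin and dermatan sulfate group. CHST11 encodes another enzyme for the 4-O position, and its probe was not well above background on any array, with a detection p between 0.0377 and 0.114, so no fold is given. CHST14, which sulfates the 4-O position in dermatan sulfate, read 7.43, 7.46, 7.43 and 7.99 on the control arrays, 7.48, 7.38, 7.42 and 7.38 with s18789, and 7.71, 8.35, 7.41 and 7.76 with s18790. The highest value of the control group and that of the s18790 group were on the pair of arrays that stood apart, and the groups overlapped. The difference was -0.16 ± 0.18 for s18789 (limma, adjusted p 1.0) and 0.23 ± 0.18 for s18790 (adjusted p 0.468), with 0.39 ± 0.18 between the siRNAs (adjusted p 0.240). The first ranged from -0.21 to -0.024 and the second from 0.048 to 0.36 when single arrays were left out; without control replicate 4 the first was -0.024, and without s18790 replicate 2 the second was 0.048.

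CHST3 encodes an enzyme for the 6-O position of galactosamine in chondroitin, the position that CHST15 also sulfates on residues already carrying the 4-O group. It read 7.74, 7.32, 7.36 and 7.83 on the control arrays, 7.68, 7.52, 7.35 and 7.60 with s18789, and 7.76, 7.99, 7.51 and 7.48 with s18790. All groups overlapped. The differences from control were -0.028 ± 0.15 for s18789 and 0.12 ± 0.15 for s18790 (limma, adjusted p 0.659), and the sign of both turned with median scaling, to 0.036 and -0.0030.

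Among the heparan sulfate enzymes other than HS6ST2, none passed the test in any comparison. HS6ST1, which sulfates the same position as HS6ST2, was a dim probe, detected on 1 control array, all 4 s18789 arrays and 2 s18790 arrays. Without the s18789 arrays, the group with its highest mean, it would not have passed the filter, so its p-values support nothing. It read 5.19, 5.58, 5.69 and 5.28 on the control arrays, 5.78, 5.69, 5.94 and 5.80 with s18789, and 6.05, 5.81, 5.88 and 4.81 with s18790. The log2 difference from control was 0.37 ± 0.23 for s18789 (limma, adjusted p 0.988) and 0.20 ± 0.23 for s18790 (adjusted p 0.612). Between the siRNAs it was -0.16 ± 0.23, and without s18790 replicate 4, the lowest array, 0.11.

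HS2ST1 encodes the enzyme for the 2-O position of the uronic acid of heparan sulfate. Its probe read 6.74, 6.64, 6.82 and 6.18 on the control arrays, 6.68, 6.87, 6.76 and 6.75 with s18789, and 6.69, 5.63, 6.70 and 6.75 with s18790. The lowest value of the control group and that of the s18790 group were on the pair of arrays that stood apart, and the remaining arrays lay between 6.64 and 6.87. The difference was 0.17 ± 0.23 for s18789 (limma, adjusted p 1.0) and -0.15 ± 0.23 for s18790 (adjusted p 0.712), which was 0.12 without s18790 replicate 2.

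NDST1 encodes the enzyme that replaces acetyl groups by sulfate on the amino group of glucosamine, the step on which later sulfation of heparan sulfate depends. Its log2 intensities were 6.32, 5.88, 6.39 and 7.08 on the control arrays, 6.60, 6.58, 6.14 and 6.46 with s18789, and 6.30, 7.17, 6.31 and 6.47 with s18790. The high values of 7.08 and 7.17 again fell on the pair of arrays that stood apart. The differences from control were 0.029 ± 0.25 for s18789 and 0.14 ± 0.25 for s18790 (limma, adjusted p 1.0 and 0.756), and neither sign was stable. The first was -0.0037, -0.15, -0.023 and -0.016 without control replicate 1, control replicate 2, s18789 replicate 1 or s18789 replicate 2, and the second was -0.036 without control replicate 2 and -0.059 without s18790 replicate 2.

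**Figure D4:**
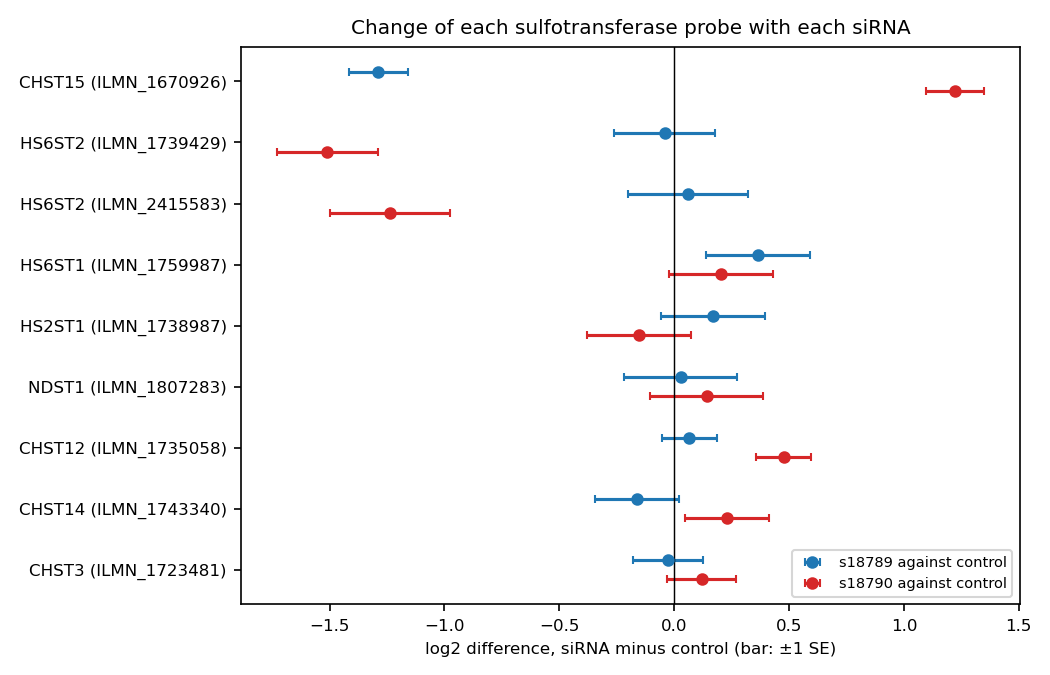
Log2 difference from control of each filtered sulfotransferase probe (horizontal axis) for s18789 (blue) and s18790 (red), with bars of 1 SE either way; probe identifiers follow the gene names. CHST15 lies at -1.29 with s18789 and 1.22 with s18790 and the HS6ST2 probes at -1.51 and -1.24 with s18790; of the others, CHST12 at 0.48 for s18790 is the one called.

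Around the sulfotransferases, 102 further genes of glycosaminoglycan synthesis and breakdown were listed, of which 97 had a probe and 57 passed the filter. For s18789 against control 0 of the 57 were called, beside 0.0942% of all probes. An unadjusted limma p under 0.05 was found for 7 of them, beside 960 of the 15922 filtered probes. For s18790 against control 7 or 12.3% were called, 5 higher and 2 lower, beside 8.31% of all probes. Between the siRNAs 5 or 8.77% were called, 2 higher and 3 lower with s18790, beside 4.19%. The median log2 difference of the 57 genes was -0.00013, 0.11 and 0.093, beside 0.011, 0.018 and 0.021 over all genes.

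The largest of these differences was a fall of SLC35B4, which carries UDP-xylose and UDP-N-acetylglucosamine into the Golgi apparatus, the former being the sugar that starts the linker. Its log2 intensity was 8.86, 8.79, 9.0 and 8.69 on the control arrays, 8.90, 8.52, 8.35 and 8.46 with s18789, and 7.92, 7.48, 7.92 and 7.13 with s18790. The s18790 arrays lay below all 8 others. The level was 0.429 times that of the control (-1.22 ± 0.18, limma, adjusted p 0.00171), a call kept in all 24 alternatives, and it was also lower than with s18789 (-0.95 ± 0.18, adjusted p 0.0135; 0.0572 with only the compared groups in the fit).

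Of the other sulfotransferases 6 of 21 passed the filter, and CHST10 rose. CHST10 builds the sulfated HNK-1 epitope of neural glycoproteins and is no enzyme of heparan or chondroitin chains proper. It read 6.58, 6.86, 6.73 and 6.91 on the control arrays, 6.85, 7.05, 6.82 and 6.74 with s18789, and 7.20, 7.58, 7.26 and 7.40 with s18790, which was above all others. The difference was 0.59 ± 0.12 against control (limma, adjusted p 0.0102; 0.0509 with median scaling) and 0.50 ± 0.12 against s18789 (0.0362). The latter p lay between 0.0505 and 0.112 without control replicate 2 or 3, any s18789 replicate, or s18790 replicate 1 or 4.

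Breakdown enzymes contributed 3 of the 7 calls, from 11 of 21 listed genes past the filter. IDS, the lysosomal sulfatase that removes sulfate from iduronic acid, was higher with s18790 by 0.67 ± 0.12 (limma, adjusted p 0.00463; 0.0599 without control replicate 3 and 0.0528 with median scaling). A second IDS probe gave 0.59 (adjusted p 0.0167) and another 0.58 (adjusted p 0.0723). IDUA, the lysosomal iduronidase that acts next, was higher by 0.64 ± 0.18 (adjusted p 0.0485), but its probe was detected on 1 control array only, and without any one of the 12 arrays other than s18790 replicate 4 the p lay between 0.0623 and 0.133. SUMF1, which activates the sulfatases, was lower (-0.60 ± 0.16, adjusted p 0.0378). Its p lay between 0.0527 and 0.0971 without any control replicate, s18789 replicate 1, 2 or 3, or s18790 replicate 1, 3 or 4. Without the pair of arrays that stood apart, the limma adjusted p was 0.00174 for IDS, 0.101 for IDUA and 0.00248 for SUMF1. With s18789 the differences of IDS, IDUA and SUMF1 from control had the same signs, uncalled, at 0.36 ± 0.12, 0.25 ± 0.18 and -0.38 ± 0.16. With array weights the adjusted limma p of IDS for s18789 was 0.0160. The other IDS probes were at 0.099 ± 0.13 and 0.20 ± 0.18 with s18789 against control, neither called. Between the siRNAs IDS, IDUA and SUMF1 differed by 0.31, 0.39 and -0.22 (limma, adjusted p 0.145, 0.240 and 0.441). The other IDS probes differed by 0.49 and 0.38 (adjusted p 0.0524 and 0.256).

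In the remaining lists the calls were single genes. B3GALT6, which adds a galactose of the linker, was the 1 called of 7 linker enzymes, at 0.65 ± 0.18 for s18790 against control (limma, adjusted p 0.0408). Its p lay between 0.0514 and 0.121 without control replicate 1, 2 or 3, s18789 replicate 1, 2 or 4, or s18790 replicate 1 or 2. With s18789 B3GALT6 was at 0.33 ± 0.18 against control (limma, adjusted p 0.913). Between the siRNAs it differed by 0.31 ± 0.18 (adjusted p 0.317). AGRN, the heparan sulfate proteoglycan agrin of the neuromuscular junction, was higher by 0.49 ± 0.14 (adjusted p 0.0470). For AGRN the p lay between 0.0522 and 0.145 without control replicate 1, 2 or 3, any s18789 replicate, or s18790 replicate 1 or 2. Without the pair of arrays that stood apart, the limma adjusted p was 0.0193 for AGRN and 0.00681 for B3GALT6. With s18789 AGRN was at 0.022 ± 0.14 against control, uncalled. Between the siRNAs it differed by 0.47 ± 0.14 (limma, adjusted p 0.0756).

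Between the siRNAs, CHSY1, a polymerase of the chondroitin chain, was lower with s18790 (-0.49 ± 0.10, limma, adjusted p 0.0208). It read 10.26, 10.26, 10.26 and 10.28 on the control arrays, 10.49, 10.41, 10.36 and 10.36 with s18789, and 10.08, 9.66, 9.98 and 9.96 with s18790. The 3 groups did not overlap, beside 7.72%, 15.3% and 16.2% of all genes with no overlap in the 3 comparisons. With s18789 the difference from control was 0.14 ± 0.10, uncalled. With s18790 the difference from control was -0.35 ± 0.10 (limma, adjusted p 0.0529). The latter was called in 6 of 24 alternatives, with p between 0.0286 and 0.0409. Without any one s18789 replicate the p between the siRNAs lay between 0.0567 and 0.0614. SLC35D2, another Golgi carrier of nucleotide sugars, was higher (0.49 ± 0.13, adjusted p 0.0479), with a p between 0.0561 and 0.137 without control replicate 1, 2 or 3, any s18789 replicate, or s18790 replicate 1, 2 or 4.

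GPC3, which encodes the membrane-anchored heparan sulfate proteoglycan glypican-3, was the gene of these lists most apart with s18789. It read 5.36, 5.34, 5.14 and 5.68 on the control arrays, where it was not well above background, 6.43, 6.18, 6.13 and 6.18 with s18789, where it was detected on all 4, and 5.54, 5.98, 5.47 and 5.32 with s18790, where it was detected on 1. The s18789 level was at least 1.47-fold higher than the control, taking for each control array the higher of its own value and the lowest value among probes above background, with a limma adjusted p of 0.0940 (0.00925 without s18790 replicate 2). GPC3 passed the filter on dim probes through its 4 s18789 arrays, the group where it was high, so its passing was not independent of the difference, and its p-values and its place among the 5 calls between the siRNAs support nothing. The fitted difference between s18790 and s18789 was -0.65 ± 0.15 (adjusted p 0.0362), against a group mostly not above background, with a p between 0.0526 and 0.0922 without control replicate 1 or 2, any s18789 replicate, or s18790 replicate 1, 3 or 4.

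None of the 5 filtered enzymes of heparan sulfate chain synthesis, the 6 genes of sulfate donor supply and the 4 chondroitin sulfate proteoglycan cores was called in any comparison. In each list the gene with the largest mean size of difference is given. EXT2, a subunit of the heparan sulfate polymerase, differed from control by -0.26 ± 0.13 with s18789 and 0.19 ± 0.13 with s18790 (limma, adjusted p 0.906 and 0.415). SLC35B3, a carrier of PAPS, differed by 0.099 ± 0.31 and -0.40 ± 0.31 (adjusted p 1.0 and 0.457). BCAN, the brain proteoglycan brevican, differed by 0.083 ± 0.19 and 0.61 ± 0.19 (adjusted p 1.0 and 0.0735).

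**Figure D5:**
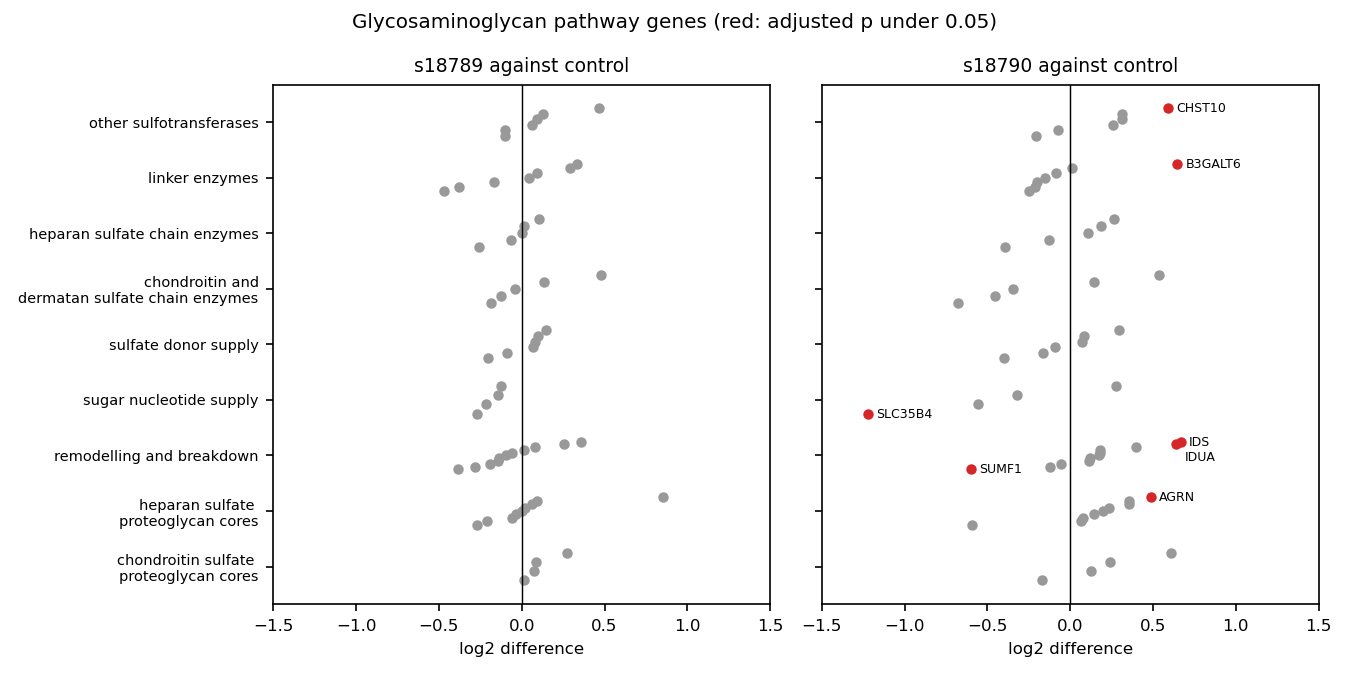
Log2 difference from control of the 57 filtered glycosaminoglycan genes, by list, for s18789 (left) and s18790 (right), 1 point per gene; red points have an adjusted p under 0.05. No point is red for s18789, and for s18790 there are 7, with SLC35B4 at -1.22 the farthest from 0.

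Some markers of the other cell states of neuroblastoma also differed with s18790, in a comparison where 8.31% of all probes were called. Of 9 mesenchymal markers, 5 were detected on all 12 arrays and PRRX1, FN1 and WWTR1 on none; against control SNAI2 (-0.48 ± 0.11), YAP1 (-1.12 ± 0.15) and COL3A1 (-0.86 ± 0.14) fell and COL1A1 (0.64 ± 0.14) rose, with limma adjusted p of 0.0166, 0.000864, 0.00357 and 0.0140. Of the adrenergic markers GATA3 rose (0.45 ± 0.10, adjusted p 0.0196). With s18789 no filtered marker was called, but SNAI2 was at -0.54 ± 0.11 against control (limma, adjusted p 0.125). Between the siRNAs SNAI2 differed by 0.058 ± 0.11 (adjusted p 0.762). YAP1 and COL3A1 were called lower with s18790 than with s18789 (adjusted p 0.00336 and 0.0440). The YAP1 probe was detected on 9 of the 12 arrays. Its mean log2 intensity with s18790 was 5.53, near background, beside 6.66 in control, so the size of its fall is uncertain. The summed normalised intensity of the mesenchymal list ranged from 6335 to 6796 in control, from 5198 to 6161 with s18789 and from 5963 to 7149 with s18790. VIM was by far the brightest of this list (mean log2 intensity 12.5 in control, beside 8.56 for COL3A1, the next). The mesenchymal sum thus mostly follows VIM and says little of the dimmer markers. The sum of the adrenergic list ranged from 33449 to 36471, 31925 to 34817 and 32487 to 35874. Of 6 blood and endothelial markers, 5 were detected on no array and CD14 on 10. The part of these markers in the differences of CHST15, HS6ST2 and CHST12 was not tested.

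The genes with the log2 profile most like that of CHST15 over the 12 arrays were found by the root mean square difference after each gene's own mean was subtracted, among 9832 other genes. MT1F, a metallothionein, was the nearest at 0.296, followed by TLE2 at 0.466, GFRA2 at 0.50, ABTB1 at 0.563 and ZNF467 at 0.571. The spread of CHST15 about its own mean was 1.04 on the same measure, as was the median distance over all genes. MT1F was lower with s18789 (log2 difference -0.68) and higher with s18790 (1.4).

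For HS6ST2 the nearest gene was CLIC4, which encodes a chloride intracellular channel protein, at 0.175. TMEM64 followed at 0.254, CPED1 at 0.254, BBS10 at 0.261 and ITGB3BP at 0.289, beside a spread of HS6ST2 about its own mean of 0.763 and a median over all genes of 0.807. CLIC4 differed from control by 0.054 with s18789 and by -1.24 with s18790. These genes were picked by likeness over the same arrays, so their differences are a description. Among the sulfotransferases themselves, HS2ST1 was the nearest to HS6ST2 (0.621) and CHST12 the nearest to CHST15 (0.877). Neither was close, as they ranked only 1550th and 662nd among the 9832 other genes.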

How the data were processed

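Total RNA of 12 samples was measured on 1-colour Illumina bead arrays, 4 per group, with groups taken from the sample titles. The authors deposited a linear intensity per probe and array, exported from GenomeStudio, per the submitters' processing notes, and not normalized between arrays, as the values show. Beside it stands a detection p-value per the file headers. The authors also deposited log2 values, made by a transform that no source used here names; they served as an alternative. Probe genes came from GEO's platform table: 30113 probes had 1 symbol, 8 several and 17200 none here, and 0 of 30074 symbols checked against current gene identifiers changed.

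Intensities were background-corrected by the normexp model through the detection p-values (offset 16), quantile normalized and put on the log2 scale in limma 3.58.1 under R 4.3.3. Probes detected at p under 0.01 on at least 4 arrays were kept (15922, of which 12654 had a symbol). One linear model with a mean per group (9 residual degrees of freedom) was fitted to all 12 arrays with empirical Bayes moderation, and p-values were adjusted by Benjamini-Hochberg over all kept probes; SE is that of this model. The most intense probe stood for a gene. The code was tested on simulated data.

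The named genes are SETD1A, every member with every probe, listed pathway genes called in any comparison or, in a list with none, the one with the largest mean size of difference, the 5 genes nearest in profile to CHST15 and to HS6ST2, and the markers of the line. The members and lists were chosen with earlier results of these data known. Replicate numbers in the labels showed no steady pairing of the arrays: same-numbered arrays of 2 groups had deviations correlated between -0.58 and 0.57, over 0.1 in 6 of 12 pairs. For number 3 the correlations were 0.37, 0.57 and 0.46, and for number 4 they were -0.49, -0.58 and 0.41. A pairing was thus not excluded. Promoter windows came from RefSeq (GRCh38.p14), for all 10 genes. Alternatives changed the background correction, offset, normalization, filter, source of values, samples in the fit, array weights, replicate block, probe choice and each array. No label or header gives the chip of an array, and chip effects were not analysed here. The number of arrays limits the precision.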

Additional observations from a re-analysis of the deposited data

Results flagged for a closer look

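Of 27 groups of 4 arrays (9 probes in 3 groups) 3 held an array far from the others, its gap to the nearest array being a larger share of the group's range than Dixon's critical value for 4 samples; chance gives such a gap in about 1 of 20 groups. CHST15 had a log2 intensity of 8.41 on s18790 replicate 3, below the nearest array at 8.81 (0.840 of the range) and still above every control array. HS2ST1 was at 5.63 on s18790 replicate 2, where the nearest array was at 6.69 (0.950 of the range). CHST14 was at 7.99 on control replicate 4, where the nearest array was at 7.46 (0.955 of the range). The arrays of the last pair of values are those that stood apart on the first principal component.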

How the results depend on the processing

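The differences of CHST15 kept their direction in all 23 alternatives (-1.35 to -0.85 for s18789 and 1.01 to 1.33 for s18790 against control), as did those of HS6ST2 with s18790 (-1.66 to -1.12 for the brighter probe). The smallest sizes came from uncorrected or deposited values. Called sulfotransferases numbered 0 for s18789 in every alternative; for s18790 against control the 1 call became 0 with median scaling, with only the groups compared and with the replicate block (0 to 1 with single arrays left out), and between the siRNAs 0 became 1 with array weights and without the 2 arrays that stood apart (0 to 1). Called pathway genes for s18789 were 1 with only the groups compared, 4 with array weights and 1 without both arrays (0 to 1 leaving out single arrays); for s18790 against control they were 2 with median scaling, 3 with only the groups compared, 13 with array weights, 4 with the replicate block and 11 without both arrays (2 to 9); between the siRNAs they were 0, 9, 1 and 9 with only the groups compared, array weights, the replicate block and without both arrays (1 to 6). Called probes for s18789 were 9 with detection on all arrays required, 37 with only the groups compared, 384 with array weights, 3 with the replicate block and 120 without both arrays (3 to 80); for s18790 against control 809 with median scaling, 428, 3117, 829 and 2766 (598 to 1770); between the siRNAs 200, 1578, 292 and 1614 (205 to 1062). The cause was not tested.

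With median scaling the median over all probes was 0.081, -0.076 and -0.14 in the 3 comparisons, and calls split into 173 higher and 636 lower for s18790 against control (641 and 682 otherwise), 102 and 591 between the siRNAs (372 and 295) and 8 and 2 for s18789 (9 and 6). The replicate numbers showed no steady pairing of the arrays, 3 of 12 arrays correlating best with their own number. With the replicate block the adjusted limma p of SETD1A for s18790 against control was 0.0512. Small uncalled differences changed sign: CHST3 was 0.036, -0.0030 and -0.039 in the 3 comparisons with median scaling, and for s18789 0.035 with array weights, 0.058 without both arrays and -0.11 to 0.060 with single arrays left out. NDST1 between the siRNAs was -0.049 with median scaling, -0.066 with array weights and -0.089 without both arrays (-0.089 to 0.20), and ranged from -0.15 to 0.25 for s18789 and from -0.059 to 0.36 for s18790 against control. AGRN for s18789 ranged from -0.051 to 0.080, HS2ST1 for s18790 against control from -0.29 to 0.12 and HS6ST1 between the siRNAs from -0.30 to 0.11. Probes near background, as CHST11 and HS6ST1, limit what could be measured.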
